A study of Homo sapiens with 24 samples.

Results

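The genes described here are 37 genes of the actin cytoskeleton, of serum response factor (SRF) and of the transcriptional coactivator YAP. They were chosen by name from 33127 genes with a transcript in the count table, with earlier results of these data known. Shares of the list set beside those of all features therefore describe the list and do not test it. The 37 genes fall into YAP1 with its partners and regulators (7 genes), target genes of YAP (5), SRF itself (1), actins (3), contractile and filament-binding proteins (10), crosslinkers and focal adhesion proteins (5), proteins of filament turnover (4) and small GTPases (2). RNA was measured by RNA-seq in A549 cells, an established human lung adenocarcinoma line, grown with serum in every group. Cells were exposed to 100 nM dexamethasone (dex), a synthetic glucocorticoid, in EtOH, or to EtOH alone at 0.02% of the medium. Exposure lasted 1, 3, 5, 7, 9 or 11 h, with 2 libraries for each treatment and time and 24 libraries in all. The labels call them biological replicates without saying whether they came from separate cultures, so p-values measure the spread between these libraries. All groups are a single cell line at a single dose. The question of each comparison is which of the 37 genes differed between dex and EtOH at the same time.

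Glucocorticoids bind the glucocorticoid receptor, which then regulates transcription directly. SRF binds a DNA element named the CArG box and, with cofactors released from monomeric actin when filaments assemble, drives genes of the actin cytoskeleton. YAP and its relative TAZ bind no DNA themselves and act through TEAD factors, and they enter the nucleus when cells spread and filaments are under tension, while LATS kinases and angiomotins keep them out. Both routes therefore read the state of actin filaments.

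Promoter stretches of 9 of the genes show the elements by which these factors are known to bind. They lie within the 250 bases before a RefSeq transcript start (GRCh38.p14), leave out any base in a GENCODE 29 exon, and read 5′ to 3′ on the strand of the gene. Capitals mark a CArG box or a TEAD site, CATTCC or, on the other strand, GGAATG. Of the 13 genes with a TEAD site, 5 were chosen to be shown first, so their split by direction reflects that choice. Of those not shown first, ACTN1, CALD1 and YAP1 passed the test described below only as higher. ACTA2, AJUBA and MYH9 passed only as lower, AMOTL2 as both and PFN1 at no time. The AXL stretch precedes a start inside the gene, and the window before its first start held no TEAD site. Of the first 5, 4 were higher with dex and 1 (AXL) was lower:
CTGF (chr6:131951374-131951622, minus strand): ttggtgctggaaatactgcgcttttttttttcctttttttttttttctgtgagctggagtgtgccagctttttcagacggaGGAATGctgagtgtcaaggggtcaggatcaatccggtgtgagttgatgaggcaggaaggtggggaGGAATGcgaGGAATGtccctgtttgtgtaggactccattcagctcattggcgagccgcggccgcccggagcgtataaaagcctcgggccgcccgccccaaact
THBS1 (chr15:39580829-39581078, plus strand): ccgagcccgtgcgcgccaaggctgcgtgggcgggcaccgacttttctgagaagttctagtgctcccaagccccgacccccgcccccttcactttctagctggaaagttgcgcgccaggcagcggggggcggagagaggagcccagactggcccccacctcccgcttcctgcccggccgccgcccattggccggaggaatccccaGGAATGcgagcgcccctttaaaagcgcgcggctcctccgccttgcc
ANKRD1 (chr10:90921277-90921337, minus strand): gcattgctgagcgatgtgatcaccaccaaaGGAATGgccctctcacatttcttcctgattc
VCL (chr10:73997866-73998113, plus strand): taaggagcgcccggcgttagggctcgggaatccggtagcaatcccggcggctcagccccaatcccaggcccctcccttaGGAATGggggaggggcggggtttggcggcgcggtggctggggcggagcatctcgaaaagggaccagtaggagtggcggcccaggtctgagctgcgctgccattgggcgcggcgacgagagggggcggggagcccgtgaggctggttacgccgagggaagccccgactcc
AXL (chr19:41226505-41226754, plus strand): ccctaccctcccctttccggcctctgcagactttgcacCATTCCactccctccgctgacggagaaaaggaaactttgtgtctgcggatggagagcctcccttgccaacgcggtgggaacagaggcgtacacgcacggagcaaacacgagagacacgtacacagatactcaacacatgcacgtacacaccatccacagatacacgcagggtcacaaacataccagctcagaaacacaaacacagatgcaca
As for AXL, the ACTN1 stretch, printed last below, precedes a start inside the gene, and the window before its first start held neither element. The next 4 hold a CArG box, and the last of them, ACTN1, holds both elements:
SRF (chr6:43171019-43171268, plus strand): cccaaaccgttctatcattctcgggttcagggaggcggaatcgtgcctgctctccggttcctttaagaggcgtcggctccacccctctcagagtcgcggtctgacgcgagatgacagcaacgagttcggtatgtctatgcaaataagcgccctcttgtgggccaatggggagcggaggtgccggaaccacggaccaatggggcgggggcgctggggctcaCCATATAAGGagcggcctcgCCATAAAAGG
CNN2 (chr19:1026358-1026580, plus strand): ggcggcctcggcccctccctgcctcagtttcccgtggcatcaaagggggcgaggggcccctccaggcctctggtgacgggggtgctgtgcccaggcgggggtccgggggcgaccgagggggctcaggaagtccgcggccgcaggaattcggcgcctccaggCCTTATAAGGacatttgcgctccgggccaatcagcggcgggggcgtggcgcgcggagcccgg
RND3 (chr2:150487730-150487917, minus strand): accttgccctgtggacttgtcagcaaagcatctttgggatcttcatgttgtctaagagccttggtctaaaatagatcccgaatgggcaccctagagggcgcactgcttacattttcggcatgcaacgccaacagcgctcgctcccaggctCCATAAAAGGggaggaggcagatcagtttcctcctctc
ACTN1 (chr14:68977655-68977816, minus strand): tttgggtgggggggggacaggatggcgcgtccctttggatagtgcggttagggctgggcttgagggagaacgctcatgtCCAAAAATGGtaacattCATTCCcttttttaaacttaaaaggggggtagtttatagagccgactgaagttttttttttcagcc

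The RefSeq table held 53 windows of 250 bases for 32 of the 37 genes. A CArG box, searched on both strands as CCWWWWWWGG (W for A or T) with no mismatch, lay in a window of 7 of the 32 genes (ACTG1, ACTN1, CNN2, FLNA, RND3, SRF and TPM4), or 21.9%, against 1.44% of all 27305 genes with a window. Stretches that differ from these letters, such as ccctatatgg in an ACTA2 window, were not counted. The SRF stretch holds 2 such boxes near its start. The TEAD site CATTCC, on either strand, lay in a window of 13 genes, or 40.6%, against 14.29% of all genes, and the AP-1 site TGANTCA in a window of 4 (ACTN4, ANKRD1, CALD1 and TAGLN2), or 12.5%, against 8.06%. Counted by window, the shares were 15.1% against 1.16%, 26.4% against 11.89% and 7.5% against 6.57% of 35116 windows. The CTGF stretch holds 3 TEAD sites, and the TEAD sites of the list also stood at genes with lower counts after dex, such as AXL and AJUBA. For AJUBA, as for AXL, the site lay before a start inside the gene, and the window before the first start held none. A match of letters is a description and not a measured site, and the list had been drawn up for these factors.

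Library totals ran from 6708864 to 13748598 counts, with 7813353 as the lowest in EtOH. The dex labels were checked with FKBP5, TSC22D3 and PER1, known targets of the glucocorticoid receptor, which were higher in every dex library than in every EtOH library of the same time. The epithelial keratins KRT8 and KRT18 were the most abundant of 5 epithelial markers, which summed to 4504 to 6776 TPM (a level per transcript length, scaled to the library) in EtOH and 5399 to 14041 in dex. The 5 did not move together. In the test described below, at an adjusted p of at most 0.1, KRT8 and KRT18 were higher from 3 to 11 h. CDH1 was higher at 5 and 7 h. EPCAM was lower at 5, 7 and 9 h (log2 fold change -0.87, -0.95 and -0.72) and KRT19 at 5 and 9 h (-0.59 and -1.04). Endothelial markers (2 of 3 matched) summed to at most 1.20 TPM and the 3 leukocyte markers to at most 5.78, with 1 of the 3 at 0 in every library. The 4 fibroblast markers summed to 10.2 to 19.7 TPM in EtOH and 3.05 to 19.2 in dex, and the 4 smooth muscle markers other than the 37 genes to 19.9 to 33.0 and 11.0 to 21.4. Of the fibroblast markers, COL1A1 passed the same test as higher at 3 h (log2 fold change 0.57). It passed as lower at 5, 7 and 9 h (-1.22, -1.02 and -1.37), and COL3A1 passed at no time. Of the smooth muscle markers, MYOCD passed the same test as lower with dex at every time from 3 to 11 h. Its log2 fold changes were -1.43, -0.97, -1.05, -1.03 and -1.46. SMTN passed as lower at 5, 9 and 11 h (-0.61, -1.22 and -0.83), and MYH11 passed at no time. The part of these marker levels in the results was not tested. The biological coefficient of variation between replicates was 9.42% at 1 h, 8.05% at 3 h, 8.34% at 5 h, 6.5% at 7 h, 10.1% at 9 h and 12.7% at 11 h, which makes the 11 h test the least sensitive of the 6. In bulk RNA, fewer cells of a type and less RNA per cell cannot be told apart.

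Of the 37 genes, 36 had counts enough for the test. CNN1, a smooth muscle calponin, was not tested, with 0 counts in 11 libraries and at most 4 in any. A gene was called at an adjusted p of at most 0.1 (edgeR quasi-likelihood F-test, Benjamini-Hochberg over 19897 features, 2 against 2 libraries at each time). From 1 to 11 h 6, 20, 20, 30, 22 and 14 of the 36 genes were called in either direction, against 0.834%, 12.9%, 23.1%, 25.6%, 18.2% and 8.65% of all features. After 1 h of dex 4 genes were higher and 2 lower, against 0.467% and 0.367% of all features. By 3 h 17 were higher and 3 lower (7.64% and 5.24% of all features), and by 5 h 15 higher and 5 lower (10.5% and 12.6%). The count was highest at 7 h, with 26 of 36 genes higher and 4 lower, against 13.9% and 11.7%, and DESeq2 called 20 higher and 1 lower there. It fell to 14 higher and 8 lower at 9 h (9.36% and 8.84%) and to 14 higher and 0 lower at 11 h (5.43% and 3.22%). At 11 h 17 of the genes had an unadjusted p under 0.05, and DESeq2 called 12 higher and 0 lower, while 15 were higher and 4 lower (AXL, AJUBA, PFN1 and LIMK1) with the GC trend removed and 17 higher and 5 lower without dex replicate 2. With the GC trend removed, 11.2% of all features were called in either direction at 11 h, against 8.65% without its removal. Among the 12828 features with a mean of at least 50 counts, which include 34 of the 36 genes, the share called was 18.1% higher and 14.8% lower at 7 h and 6.38% and 4.12% at 11 h.

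**Figure D1:**
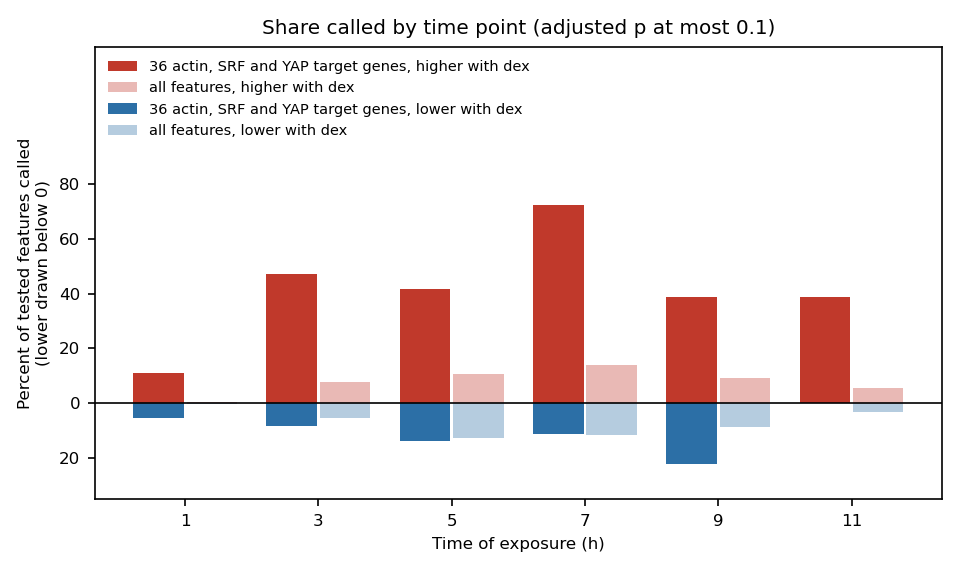
Percent of tested features called at an adjusted p of at most 0.1 (vertical axis, with lower drawn below 0) at each time of exposure in hours, for the 36 tested genes in solid bars and all 19897 features in pale bars. The solid bars for higher genes stand above the pale ones at all 6 times, while the solid bars for lower genes stand beside pale bars of like height at 5 and 7 h and are missing at 11 h.

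The median log2 fold change of the 36 genes was -0.07 at 1 h, 0.28 at 3 h, 0.20 at 5 h, 0.36 at 7 h, 0.07 at 9 h and 0.28 at 11 h, while that of all features lay between -0.03 and 0.01. Over the time course 14 genes (38.9% of those tested) were higher at 3 or more time points, against 7.05% of all features, and 3 (8.3%) were lower, against 5.58%. With the GC trend of each library removed, an alternative chosen after seeing the data and described further on, 16 genes were higher and 5 lower at 3 or more time points. The share of all features that did so under that alternative was not counted. In either direction it called 1.24%, 12.6%, 23.4%, 25.6%, 18.7% and 11.2% of all features from 1 to 11 h. CTGF, ANKRD1, THBS1 and RHOB were higher at all 6 time points, AMOTL2 was called at all 6 in both directions, 15 genes were called only at 1 or 2 time points and PFN1 at none. Groups did not overlap for 11, 30, 32, 35, 25 and 24 of the 36 genes from 1 to 11 h, beside 35.1%, 50.6%, 54.3%, 56.9%, 53.8% and 45.1% of all features.

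**Figure D2:**
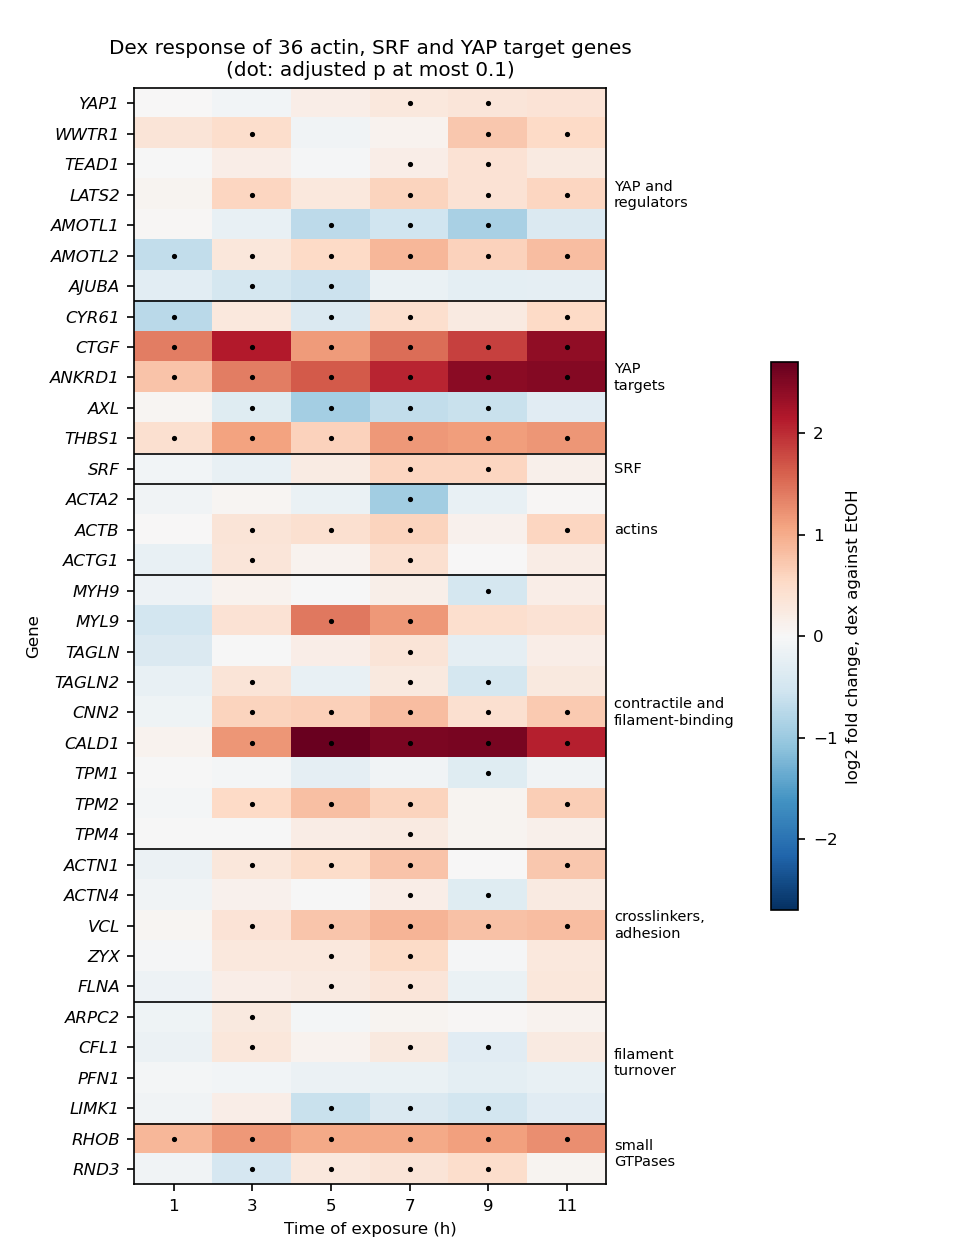
Log2 fold change of dex against EtOH (colour, red higher and blue lower) for 36 genes (rows, by role) at each time of exposure in hours (columns), with a dot where the adjusted p was at most 0.1. CALD1, CTGF and ANKRD1 carry the deepest red, and AMOTL1, AXL and LIMK1 are blue from 5 to 9 h.

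Levels per transcript length in EtOH differed widely between the genes. ACTG1 was highest, with a median of 11982 TPM over 12 libraries (9170 to 14504), followed by ACTB at 3589 (3097 to 4672), and those 2 ranges did not overlap. TPM1 (1244), ACTN4 (1149.8) and CFL1 (1117) came next and overlapped each other. Among the regulators WWTR1, which encodes TAZ, stood at 273 TPM (234 to 309.7) and YAP1 at 71.1 (57.9 to 82.8), ranges that did not overlap. SRF stood at 5.01 TPM (4.16 to 6.66), ACTA2, the smooth muscle actin, at 6.08, MYL9 at 0.879 and CNN1 at 0. ACTA2, MYL9 and CNN1, which mark smooth muscle, were with AMOTL1 and SRF the lowest of the 37 in this line. Not all such genes were low, since TAGLN, also used as a smooth muscle marker, stood at 63.6 TPM. Of the other contractile and filament-binding genes, TPM2 stood at 95.3 TPM and CALD1 at 125.

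Both coactivators were higher with dex at some times. WWTR1 was called higher at 3, 9 and 11 h, by a log2 fold change of 0.46 to 0.72, and was not called at 1, 5 or 7 h. At 1 h it was called with the replicate number as a block (0.34) and without dex replicate 2 (0.45). WWTR1 stood in dex replicates 1 and 2 at 570.3 and 487 CPM at 1 h, 567 and 629.9 at 3 h, 407 and 374 at 5 h, 470 and 471 at 7 h, 593 and 570.4 at 9 h, and 659 and 515 at 11 h. In EtOH, WWTR1 stood at 439 and 397 CPM, 460.2 and 408, 419 and 418, 442 and 433, 375 and 333, and 407 and 401 at the same times. Both dex libraries lay above both EtOH libraries at every time but 5 h, where both lay below them, and the 11 h call was lost without either EtOH library (0.35 to 0.71). YAP1 was called at 7 h, at 0.29 (SE 0.083, adjusted p = 0.0111), and at 9 h, at 0.34 (SE 0.12, adjusted p = 0.0871). YAP1 stood in dex replicates 1 and 2 at 150.2 and 114 CPM at 1 h, 139 and 138 at 3 h, 144 and 131 at 5 h, 166 and 162 at 7 h, 161 and 149.5 at 9 h, and 166 and 148 at 11 h. In EtOH, YAP1 stood at 131 and 131 CPM, 151 and 143, 114 and 128, 122 and 145, 136 and 109.8, and 130.3 and 115 at the same times. From 5 h on its dex libraries lay above its EtOH libraries without overlap, 1.13-fold higher at 5 h and 1.28-fold at 11 h. Whether the dex differences of the 2 genes differed from each other was not tested. TEAD1, a DNA-binding partner of both, was called at 7 h (0.18) and 9 h (0.38). The 7 h calls of YAP1 and TEAD1 were lost without either dex library (0.18 to 0.42 and 0.10 to 0.26 over the 4 omissions), and their 9 h calls without either dex library or without EtOH replicate 2 (0.19 to 0.50 and 0.18 to 0.61). The 7 h calls of both were also lost in a single fit over all libraries and with the most counted transcript alone, where YAP1 stood at 0.17, and DESeq2 lost the 9 h calls of both and the 7 h call of TEAD1.

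The regulators of YAP were called in both directions. LATS2, a kinase that phosphorylates YAP, and AMOTL2, an angiomotin that binds it, were higher with dex, whereas AMOTL1, another angiomotin, and AJUBA, an adaptor that inhibits LATS kinases, were lower. AMOTL2 stood in dex replicates 1 and 2 at 36.1 and 33.8 CPM at 1 h, 71.8 and 73.3 at 3 h, 73.7 and 90.02 at 5 h, 91.9 and 97.1 at 7 h, 87.96 and 89.5 at 9 h, and 81.95 and 95.98 at 11 h. In EtOH, AMOTL2 stood at 57.4 and 53.7 CPM, 58.8 and 57.9, 57.7 and 55.5, 51.1 and 50.7, 57.6 and 57.6, and 52.2 and 48.02 at the same times. The gene turned from lower at 1 h, at -0.67 (SE 0.13, adjusted p = 0.0132), to higher from 3 h on, up to 0.89 (SE 0.089, adjusted p = 1.18e-08) at 7 h. Its 1 h call was lost without either EtOH library (-0.72 to -0.62) and its 3 h call without any 1 of the 4 libraries (0.30 to 0.33) or with DESeq2, and its 11 h call was lost without EtOH replicate 2 (0.71 to 0.94). LATS2 stood in dex replicates 1 and 2 at 21.4 and 21.2 CPM at 1 h, 30.5 and 31.5 at 3 h, 26.5 and 25.3 at 5 h, 30.1 and 34.1 at 7 h, 31.9 and 31.3 at 9 h, and 32.3 and 34.4 at 11 h. In EtOH, LATS2 stood at 19.6 and 20.8 CPM, 19.4 and 22.01, 22.01 and 20.7, 19.9 and 21.96, 25.6 and 22.6, and 22.8 and 21.99 at the same times. LATS2 was called at 3, 7, 9 and 11 h, at 0.58, 0.61, 0.39 and 0.58, with its dex libraries above its EtOH libraries at all 6 times. The calls at 9 h were lost without either dex library or EtOH replicate 2 (0.30 to 0.48) and at 11 h without either EtOH library (0.53 to 0.62), and DESeq2 lost both. AMOTL1 stood in dex replicates 1 and 2 at 22.2 and 27.3 CPM at 1 h, 20.5 and 21.6 at 3 h, 14.95 and 13.02 at 5 h, 12.97 and 18.3 at 7 h, 12.7 and 15.5 at 9 h, and 16.7 and 16.5 at 11 h. In EtOH, AMOTL1 stood at 23.2 and 24.6 CPM, 24.3 and 24.3, 20.7 and 24.7, 20.7 and 23.6, 29.4 and 22.8, and 20.8 and 22.9 at the same times. At 5, 7 and 9 h every AMOTL1 value after dex lay below every EtOH value, by -0.70, -0.53 and -0.87, and the 7 h call was lost without dex replicate 1 (-0.77 to -0.28) and with DESeq2. AJUBA was called lower at 3 h, at -0.48 (SE 0.11, adjusted p = 0.00241), and 5 h, at -0.57 (SE 0.11, adjusted p = 4.09e-05), and those calls held without each library in turn.

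The 5 target genes of YAP did not move as 1 group. CTGF and CYR61, secreted matricellular proteins, ANKRD1, an ankyrin repeat protein found in muscle and injured tissue, THBS1, thrombospondin, and AXL, a receptor tyrosine kinase, are all used as readouts of YAP. CTGF, ANKRD1 and THBS1 were higher at every time point, AXL was lower from 3 to 9 h, and CYR61 was called lower at 1 and 5 h and higher at 7 and 11 h.

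CTGF stood in dex replicates 1 and 2 at 94.2 and 72.6 CPM at 1 h, 117 and 144 at 3 h, 54.1 and 55.5 at 5 h, 105 and 97.7 at 7 h, 123 and 113 at 9 h, and 136 and 111 at 11 h. In EtOH, CTGF stood at 31.6 and 33.1 CPM, 29.7 and 29.3, 23.9 and 25.3, 34.3 and 36.5, 33.3 and 31.8, and 23.5 and 23.3 at the same times. The lowest dex value was above the highest EtOH value of any time, and the fold rose to 4.43 at 3 h, dropped to 2.23 at 5 h and was 5.28 at 11 h. In log2 terms the difference was 2.15 (SE 0.12, adjusted p = 5.35e-15) at 3 h, 1.15 (SE 0.13, adjusted p = 2.35e-10) at 5 h and 2.40 (SE 0.16, adjusted p = 9.77e-07) at 11 h. CYR61 stood in dex replicates 1 and 2 at 42.3 and 35.7 CPM at 1 h, 79.97 and 95.6 at 3 h, 39.9 and 57.6 at 5 h, 91.3 and 89.4 at 7 h, 97.9 and 84.95 at 9 h, and 109 and 87.3 at 11 h. In EtOH, CYR61 stood at 67.7 and 62.8 CPM, 74.4 and 69.4, 62.04 and 64.9, 68.7 and 63.3, 82.2 and 71.7, and 75.8 and 60.1 at the same times. CYR61 belongs to the same family of proteins as CTGF. Its dex libraries were also lower at 5 h than at 3 or 7 h, and at 1 h they lay below EtOH while those of CTGF lay above. The differences were -0.74 (SE 0.13, adjusted p = 0.00518) at 1 h, -0.38 (SE 0.13, adjusted p = 0.0363) at 5 h, 0.45 (SE 0.087, adjusted p = 0.000291) at 7 h and 0.53 (SE 0.16, adjusted p = 0.0797) at 11 h. Of these the 7 h call held without each library. The 1 h call was lost without EtOH replicate 1 (-0.87 to -0.63 over the 4 omissions), the 5 h call without dex replicate 1 or either EtOH library (-0.67 to -0.14) and the 11 h call without either EtOH library (0.37 to 0.71). DESeq2 lost the 5 and 11 h calls.

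ANKRD1 stood in dex replicates 1 and 2 at 30.2 and 35.3 CPM at 1 h, 41.9 and 46.96 at 3 h, 43.2 and 42.8 at 5 h, 65.6 and 69.8 at 7 h, 73.99 and 75.99 at 9 h, and 81.4 and 69.3 at 11 h. In EtOH, ANKRD1 stood at 20.6 and 17.9 CPM, 19.2 and 15.2, 13.9 and 13.3, 17.5 and 14.7, 11.9 and 16.1, and 13.96 and 13.2 at the same times. Its dex mean was higher at each time than at the time before, 5 h excepted, and went from 32.7 CPM at 1 h to 75.4 CPM at 11 h, while the EtOH mean stayed between 13.6 and 19.2. The log2 difference was 0.76 (SE 0.16, adjusted p = 0.0168) at 1 h, 1.66 (SE 0.14, adjusted p = 6.54e-14) at 5 h and 2.47 (SE 0.17, adjusted p = 1e-06) at 11 h, and of the 6 calls that at 1 h was lost without EtOH replicate 2 (0.66 to 0.88). THBS1 stood in dex replicates 1 and 2 at 405 and 400.2 CPM at 1 h, 622 and 587 at 3 h, 505 and 437 at 5 h, 618 and 679.8 at 7 h, 658 and 678 at 9 h, and 683 and 684 at 11 h. In EtOH, THBS1 stood at 293 and 302 CPM, 290.1 and 281, 306 and 310.03, 270.4 and 305, 324 and 287, and 324 and 279 at the same times. THBS1 was also lower in dex at 5 h than at 3 or 7 h, and the 5 h difference was 0.61 (SE 0.1, adjusted p = 6.34e-06), against 1.08 (SE 0.094, adjusted p = 1.54e-10) at 3 h and 1.18 (SE 0.14, adjusted p = 8.06e-05) at 11 h. Its 1 h call, at 0.44, was lost without either EtOH library (0.42 to 0.46). AXL stood in dex replicates 1 and 2 at 191 and 216 CPM at 1 h, 177 and 159 at 3 h, 98.97 and 113 at 5 h, 121 and 132 at 7 h, 133 and 140.1 at 9 h, and 140.3 and 155 at 11 h. In EtOH, AXL stood at 193 and 199.99 CPM, 223 and 200.1, 197 and 206, 198 and 205, 200.5 and 213, and 181 and 184 at the same times. AXL was not called at 1 h and was lowest at 5 h, at -0.93 (SE 0.11, adjusted p = 6.74e-10). By 11 h it was nearer EtOH, at -0.30 with an adjusted p of 0.263, but both dex libraries still lay below both EtOH libraries. It was called lower at 11 h in a single fit over all libraries (-0.30) and with the GC trend removed (-0.39). The 3 h call, at -0.33, was lost without dex replicate 2 or EtOH replicate 1 (-0.41 to -0.25).

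**Figure D3:**
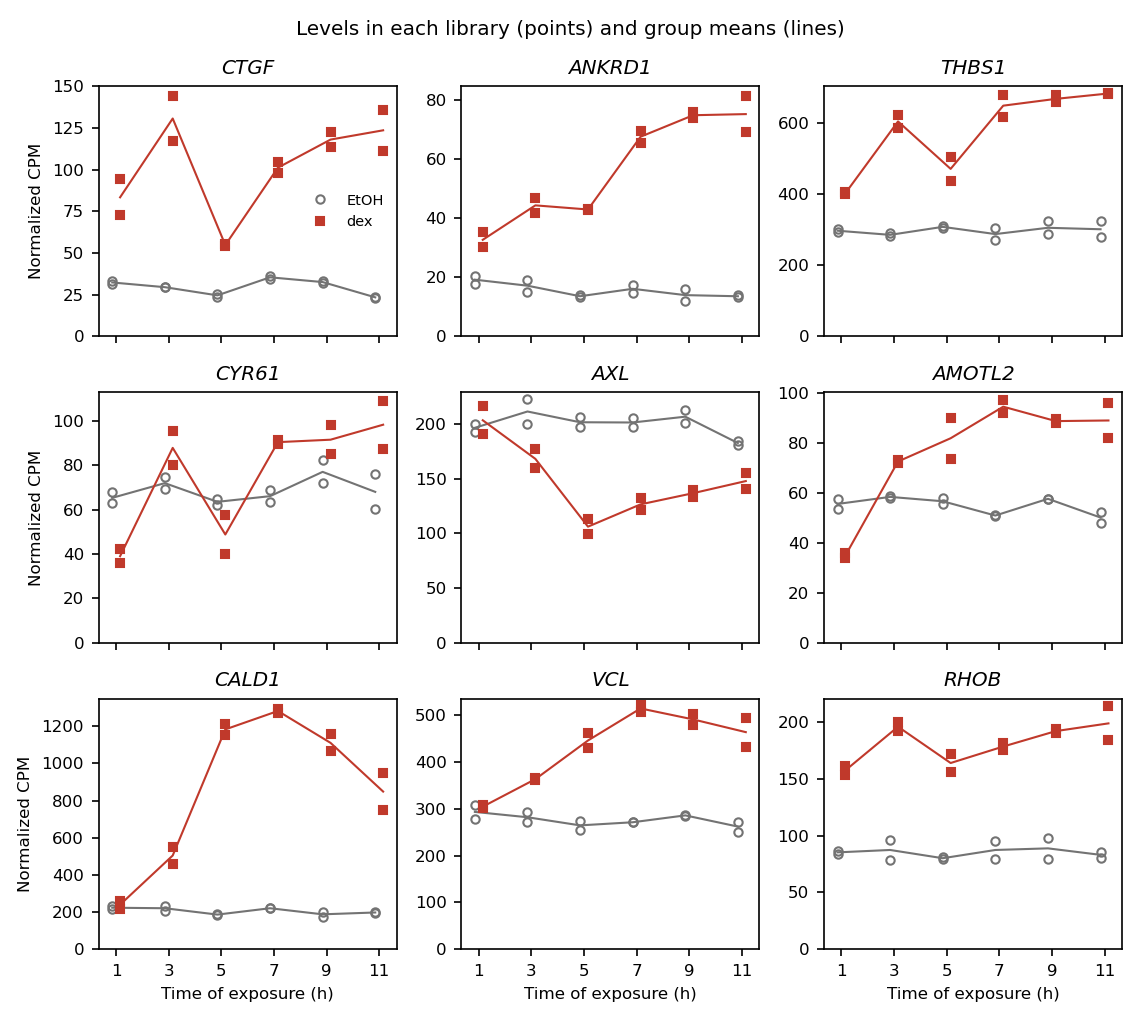
Normalized CPM (vertical axis, from 0) against time of exposure in hours for 9 genes, with each library as a point, open circles for EtOH and filled squares for dex, and lines through the means of the 2 libraries. CTGF, ANKRD1, THBS1 and RHOB lie above EtOH at all 6 times, CALD1 and VCL part from EtOH at 3 h, AXL falls below it, and CTGF, CYR61 and THBS1 all dip at 5 h in dex.

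SRF, the transcription factor of the CArG box, was itself raised late and modestly. SRF stood in dex replicates 1 and 2 at 7.83 and 10.95 CPM at 1 h, 9.75 and 8.88 at 3 h, 13.6 and 13.3 at 5 h, 16.03 and 15.1 at 7 h, 15.97 and 16.6 at 9 h, and 13.2 and 15.2 at 11 h. In EtOH, SRF stood at 8.90 and 10.5 CPM, 10.3 and 11.2, 12.7 and 10.5, 11.1 and 9.86, 9.50 and 12.5, and 13.96 and 12.03 at the same times. It was called at 7 h, at 0.58 (SE 0.15, adjusted p = 0.00701), and 9 h, at 0.57 (SE 0.18, adjusted p = 0.0477), and at the other 4 times its groups overlapped or differed by at most 0.22 in either direction. No library held more than 221 SRF counts. The 7 h call was lost without dex replicate 1 (0.50 to 0.67) and the 9 h call without either dex library or EtOH replicate 1 (0.38 to 0.78). DESeq2 called SRF at neither time.

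Of the 3 actins, the 2 cytoplasmic ones were higher with dex at some times and the smooth muscle one was not. ACTB, cytoplasmic beta-actin, was called higher at 3, 5, 7 and 11 h. ACTB stood in dex replicates 1 and 2 at 3473 and 4459 CPM at 1 h, 4016 and 4082 at 3 h, 4321 and 4509 at 5 h, 4629 and 4024 at 7 h, 3936 and 3991 at 9 h, and 4513 and 4174 at 11 h. In EtOH, ACTB stood at 3626 and 4195 CPM, 2911 and 3467, 3242 and 3316, 2727 and 2946, 3345 and 3977, and 2992 and 2818 at the same times. The dex libraries lay above the EtOH libraries at those 4 times and overlapped them at 1 and 9 h, and the difference reached 0.61 (SE 0.077, adjusted p = 7.73e-07) at 7 h. Calls at 5 and 7 h held without each library, that at 3 h was lost without EtOH replicate 1 (0.22 to 0.48) and that at 11 h without either EtOH library (0.52 to 0.64). ACTG1, cytoplasmic gamma-actin and the most abundant of the 37, was called at 3 h (0.32) and 7 h (0.44), ranging from 8344 to 13464 CPM in dex and from 8406 to 13407 in EtOH over all times. Its 3 h call was lost without replicate 1 of either group (0.22 to 0.42). That call was also lost in a single fit over all libraries and with the replicate number as a block. The 7 h call was lost without dex replicate 2 (0.31 to 0.59). ACTA2, at most 56 counts in any library, was called lower at 7 h only, at -0.93 (SE 0.33, adjusted p = 0.0418), a call lost without replicate 1 of either group (-1.35 to -0.51). Of the 50-base words of ACTB 3.08%, and of those of ACTG1 1.1%, occur in other genes with listed transcripts.

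Among the contractile and filament-binding proteins, CALD1 (caldesmon, which binds actin, myosin and tropomyosin) had the largest difference of all 37 genes. CALD1 stood in dex replicates 1 and 2 at 260.4 and 218 CPM at 1 h, 458 and 550.2 at 3 h, 1152 and 1214 at 5 h, 1272 and 1292 at 7 h, 1156 and 1065 at 9 h, and 946 and 750.2 at 11 h. In EtOH, CALD1 stood at 229.7 and 216 CPM, 234 and 205, 181 and 191, 219.9 and 220.1, 202 and 172, and 201 and 193 at the same times. The groups overlapped at 1 h, were apart at 3 h and stood 6.37-fold apart at 5 h, after which the dex level came down from 1282 CPM at 7 h to 848 at 11 h. The difference was 1.20 (SE 0.1, adjusted p = 2.31e-10) at 3 h, 2.67 (SE 0.11, adjusted p = 5.77e-26) at 5 h and 2.11 (SE 0.15, adjusted p = 1.22e-06) at 11 h. CNN2, a calponin of non-muscle cells, and TPM2, beta-tropomyosin, were also higher. CNN2 stood in dex replicates 1 and 2 at 57.5 and 64.96 CPM at 1 h, 97.3 and 86.3 at 3 h, 112 and 106 at 5 h, 113 and 101 at 7 h, 100.1 and 109.5 at 9 h, and 102 and 114 at 11 h. In EtOH, CNN2 stood at 68.8 and 64.1 CPM, 60.3 and 60.02, 75.3 and 63.7, 54.3 and 65.97, 77.9 and 77.6, and 73.7 and 58.6 at the same times. CNN2 was called at every time from 3 h on, from 0.43 at 9 h to 0.83 (SE 0.096, adjusted p = 1.62e-07) at 7 h, and the calls at 9 h (without either dex library, 0.36 to 0.49) and 11 h (without EtOH replicate 2, 0.55 to 0.88) were lost by omissions. TPM2 stood in dex replicates 1 and 2 at 47.6 and 60.2 CPM at 1 h, 67.5 and 63.2 at 3 h, 79.3 and 87.04 at 5 h, 71.4 and 64.3 at 7 h, 62.2 and 69.2 at 9 h, and 64.2 and 93.6 at 11 h. In EtOH, TPM2 stood at 54.9 and 56.7 CPM, 46.7 and 43.2, 51.4 and 43.1, 49.3 and 40.99, 49.2 and 76.95, and 49.7 and 49.99 at the same times. TPM2 was called at 3, 5, 7 and 11 h, most at 5 h, at 0.82 (SE 0.12, adjusted p = 2.05e-07), and at 9 h 1 EtOH library stood above both dex libraries. Its 11 h call was lost without either EtOH library (0.36 to 0.91), and its 7 and 11 h calls with the most counted transcript alone.

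The other contractile genes had few calls, and those were not all 1 way. MYH9, the heavy chain of non-muscle myosin IIA, was called lower at 9 h (-0.47), TPM1 lower at 9 h (-0.32), TPM4 higher at 7 h (0.24) and TAGLN, transgelin, higher at 7 h (0.35). TAGLN2 was higher at 3 h (0.35) and 7 h (0.26) and lower at 9 h (-0.48), and at 11 h its dex libraries held 507 and 989.95 CPM, the widest gap between replicates in this group. MYL9, a myosin light chain of smooth muscle, was called higher at 5 h (1.42, SE 0.49) and 7 h (1.18), from at most 22 counts in any library. By count, 4 of the 9 tested genes of the group were higher at 3 h and at 5 h, 7 at 7 h and 3 at 11 h (7.64%, 10.5%, 13.9% and 5.43% of all features), and at 9 h 2 were higher and 3 lower (9.36% and 8.84%).

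All 5 crosslinkers and focal adhesion proteins were called higher at 7 h, against 13.9% of all features. VCL, vinculin, which couples integrin adhesions to actin, had the most lasting difference. VCL stood in dex replicates 1 and 2 at 301 and 308 CPM at 1 h, 361 and 366 at 3 h, 461 and 431 at 5 h, 507 and 522 at 7 h, 480.2 and 502 at 9 h, and 433 and 495 at 11 h. In EtOH, VCL stood at 278 and 309 CPM, 292 and 272, 255 and 274, 271 and 271, 285 and 287, and 273 and 251 at the same times. The dex libraries stood above the EtOH libraries from 3 h on, by 0.37 (SE 0.094, adjusted p = 0.00803) at 3 h and 0.92 (SE 0.07, adjusted p = 6.1e-11) at 7 h. Only the 3 h call was lost when a library was left out (without EtOH replicate 2, 0.32 to 0.42). ACTN1, alpha-actinin of stress fibres and adhesions, was called at 3, 5, 7 and 11 h. ACTN1 stood in dex replicates 1 and 2 at 264 and 312 CPM at 1 h, 359 and 329.9 at 3 h, 412 and 399.8 at 5 h, 406 and 381 at 7 h, 315 and 374 at 9 h, and 333 and 500.3 at 11 h. In EtOH, ACTN1 stood at 296 and 350.1 CPM, 278 and 279.9, 299 and 280.01, 226 and 238, 331 and 356, and 256 and 246 at the same times. Its groups were apart by 0.76 (SE 0.073, adjusted p = 5.08e-09) at 7 h and overlapped at 9 h. Without either EtOH library the 11 h call was lost (0.41 to 1.00), as was the 3 h call without either EtOH library or dex replicate 1 (0.24 to 0.36). ZYX, zyxin, was called at 5 h (0.29) and 7 h (0.51), FLNA, filamin A, at 5 h (0.25) and 7 h (0.33), and ACTN4 higher at 7 h (0.18) and lower at 9 h (-0.32). The 7 h call of ACTN4 was lost with DESeq2 and without either dex library or EtOH replicate 1 (0.12 to 0.24). At 11 h the dex libraries of FLNA held 930.3 and 1671 CPM, on either side of the EtOH libraries at 1034 and 1073.

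Genes of filament turnover were called in both directions. LIMK1, the kinase that inactivates cofilin, was called lower at 5, 7 and 9 h. LIMK1 stood in dex replicates 1 and 2 at 29.6 and 35.6 CPM at 1 h, 35.3 and 30.3 at 3 h, 24.2 and 22.1 at 5 h, 23.6 and 24.4 at 7 h, 24.5 and 28.2 at 9 h, and 23.1 and 36.8 at 11 h. In EtOH, LIMK1 stood at 30.4 and 39.1 CPM, 29.97 and 28.01, 35.2 and 35.1, 30.6 and 32.6, 36.1 and 38.9, and 38.5 and 35.99 at the same times. At those 3 times both dex values lay below both EtOH values, with differences of -0.60 (SE 0.13, adjusted p = 0.000524) at 5 h, -0.40 (SE 0.11, adjusted p = 0.0117) at 7 h and -0.50 (SE 0.14, adjusted p = 0.0244) at 9 h, and the calls at 7 and 9 h were lost without either dex library (-0.44 to -0.35 and -0.61 to -0.41) and with DESeq2. CFL1, cofilin, which severs filaments, was called higher at 3 h (0.31) and 7 h (0.27) and lower at 9 h (-0.31). ARPC2, a subunit of the Arp2/3 complex that nucleates branches, was called at 3 h only (0.25), a call lost without any 1 of the 4 libraries (0.21 to 0.30). PFN1, profilin, which feeds actin monomers to growing ends, was not called at any time, with log2 values of -0.27 to -0.05.

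The 2 small GTPases followed different courses. RHOB, a short-lived and inducible relative of RHOA, was higher by about the same factor throughout. RHOB stood in dex replicates 1 and 2 at 161 and 154 CPM at 1 h, 192 and 200 at 3 h, 156 and 172 at 5 h, 175 and 182 at 7 h, 194 and 191 at 9 h, and 214 and 184 at 11 h. In EtOH, RHOB stood at 86.9 and 83.7 CPM, 95.98 and 78.8, 79.04 and 81.2, 95.6 and 79.1, 79.7 and 97.9, and 85.5 and 80.6 at the same times. Every dex value exceeded every EtOH value of any time, and the log2 difference lay between 0.89 (SE 0.11, adjusted p = 8.78e-05) at 1 h and 1.26 (SE 0.14, adjusted p = 6.08e-05) at 11 h. Its 6 calls held without each library in turn. RND3, an atypical GTPase that opposes RHOA, was lower at 3 h and higher afterwards. RND3 stood in dex replicates 1 and 2 at 92.1 and 78.9 CPM at 1 h, 60.8 and 70.9 at 3 h, 95.2 and 101 at 5 h, 110.3 and 112 at 7 h, 107 and 99.8 at 9 h, and 87.4 and 70.8 at 11 h. In EtOH, RND3 stood at 94.7 and 88.3 CPM, 96.2 and 83.4, 77.7 and 83.03, 87.8 and 85.6, 74.7 and 74.5, and 73.2 and 77.2 at the same times. The difference was -0.45 (SE 0.11, adjusted p = 0.00795) at 3 h and 0.47 (SE 0.12, adjusted p = 0.011) at 9 h, and the groups overlapped again at 1 and 11 h. The 3 h call was lost without replicate 1 of either group (-0.56 to -0.34), while the call at 7 h, 0.36, held without each library, and those at 5 h (0.24 to 0.34) and 9 h (0.42 to 0.52) did not, and the 5 h call was also lost with DESeq2.

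Whether the dex difference itself varied between the 6 times was tested in a fit over all 24 libraries. It varied for 18 of 36 genes (50%), against 13.9% of all features. CALD1 had the widest range, 2.57 on the log2 scale (adjusted p = 8.08e-12), followed by ANKRD1 at 1.71 (1.84e-06) and AMOTL2 at 1.56 (2.05e-07). RHOB, higher at all 6 times, was not among them (adjusted p = 0.536). In EtOH alone 8 genes (22.2%) varied with time, against 3.17% of all features. These were CTGF, TAGLN2, ACTN1, AJUBA, ACTB, MYH9, ZYX and CFL1, and for 33 of the 36 the highest EtOH mean was at most 1.5 times the lowest. The count in EtOH was the least firm of these values, with 5 genes once the GC trend was removed and from 0 without EtOH replicate 1 of 7 h to 14 without EtOH replicate 1 of 9 h.

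Some of the smaller differences moved with the GC content of the transcripts. Of the 36 genes, 14 lay in the quintile of features with the highest GC content and 6 in the 2 lowest quintiles. That highest quintile had a median log2 fold change of -0.12 at 1 h, 0.16 at 3 h, 0.04 at 5 h, 0.13 at 7 h, -0.19 at 9 h and 0.16 at 11 h over all features, and the lowest quintile 0.03, -0.12, -0.06, -0.07, 0.11 and -0.08. Of the 14 genes in the highest quintile 6, ACTN4, CFL1, FLNA, MYH9, TAGLN2 and ZYX, had log2 values above 0 at 3, 7 and 11 h and below 0 at 1 and 9 h, and the other 8, AMOTL2, CNN2, LIMK1, MYL9, PFN1, RHOB, SRF and TPM2, had other courses. With the GC trend of each library removed, an alternative chosen after seeing the data, 99 of the 112 calls remained, 13 were lost, 11 were gained and none changed sign. The calls lost were those of CFL1 at 3 and 9 h, ACTN4 at 7 and 9 h, TAGLN2 at 3 and 7 h, and ACTG1, ACTN1 and AMOTL2 at 3 h, ZYX and FLNA at 5 h, MYL9 at 7 h and LIMK1 at 9 h. Among those gained were lower calls of PFN1 at 5, 7 and 11 h, at -0.22, -0.26 and -0.34. The calls of CTGF, ANKRD1, THBS1, CALD1, VCL, CNN2 and RHOB were all kept. Of the 18 genes whose dex difference varied over time 15 still did, while ACTG1, ACTN4 and CFL1 dropped out and AJUBA, SRF and LIMK1 came in.

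**Figure D4:**
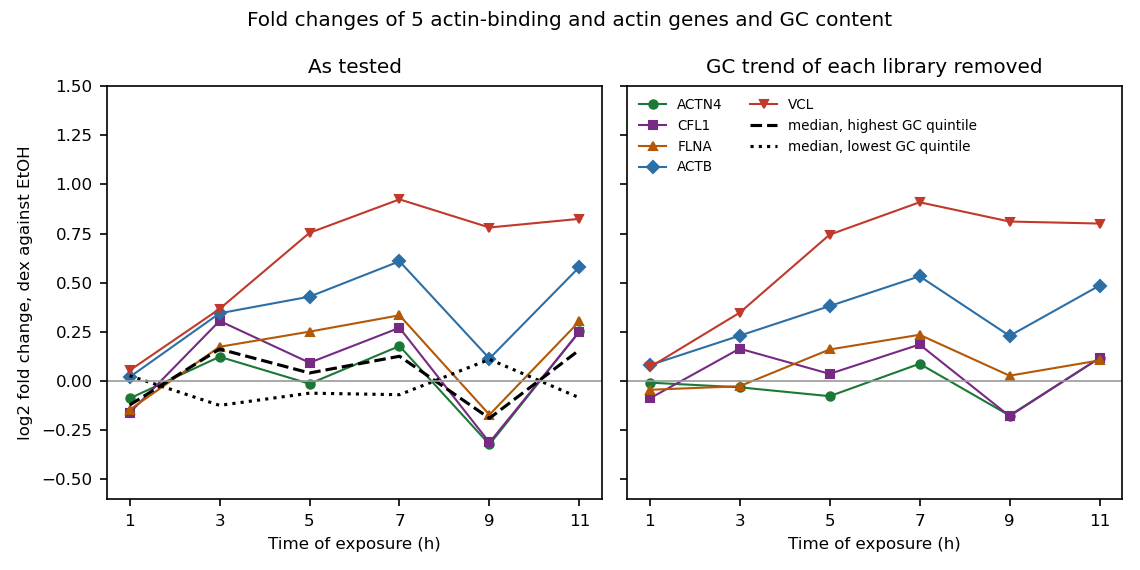
Log2 fold change of dex against EtOH (vertical axis) by time of exposure in hours for 5 genes as tested (left) and with the GC trend of each library removed (right), with the medians of all features in the highest and lowest quintile of GC content as dashed and dotted lines. ACTN4, CFL1 and FLNA follow the dashed line at 9 h and move closer to 0 on the right, while VCL and ACTB stay above 0 from 3 h on in both panels.

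Genes of the same pathways outside the 37 were taken from 4 lists written from general knowledge, 87 genes of which 85 were tested, and 1 of the lists is not reported on its own here. Over the 4 lists 3 were higher and 2 lower at 1 h (shares of all features as above), 17 and 9 at 3 h, 18 and 12 at 5 h, 28 and 8 at 7 h, 15 and 7 at 9 h and 13 and 5 at 11 h. Among 16 further genes of YAP signatures 5 were higher and 5 lower at 5 h, against 10.5% and 12.6% of all features. IGFBP3, a binding protein of insulin-like growth factors, held 51.4 and 54.7 CPM in dex against 324 and 345 in EtOH, at -2.66 (SE 0.11, adjusted p = 1.6e-25), and TGFB2, a transforming growth factor, was lower at -1.50 (SE 0.12, adjusted p = 3.83e-15). GADD45A, a growth arrest protein, was higher at 1.76 (SE 0.32, adjusted p = 0.0247), and RBMS3, an RNA-binding protein, at 1.53 (SE 0.25, adjusted p = 2.61e-06). The Hippo core held 20 tested genes, of which 2 were higher and 0 lower at 5 h, MAP4K4 at 0.37 and WWC1 at 0.31, and 7 higher and 0 lower at 7 h, against 10.5% and 12.6% of all features at 5 h and 13.9% and 11.7% at 7 h.

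Of 29 SRF cofactors and other actin genes, 9 were higher and 3 lower at 5 h and 13 higher and 1 lower at 7 h (10.5% and 12.6%, and 13.9% and 11.7%, of all features). PXN, paxillin, a focal adhesion scaffold, held 399 and 415 CPM in dex against 186 and 164 in EtOH, at 1.22 (SE 0.1, adjusted p = 1.09e-13), and VASP, which elongates filaments, was higher at 0.69 (SE 0.11, adjusted p = 1.12e-06). The lower ones were led by MYH10, another non-muscle myosin, at -0.40, and FHL2, a LIM protein that binds SRF, at -0.30.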

How the data were processed

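The authors mapped single-end reads of stranded poly-A libraries to GENCODE transcripts of hg19 with Bowtie and tallied them per transcript with SAMtools, and the deposited values are raw counts. How they placed reads that match several transcripts is not given in the sources used here. Of 119207 transcripts, 110262 (94.08% of counts) were joined to genes by their identifiers in GENCODE 29 and summed per gene, and the other 8945 were kept singly. Groups came from the labels, whose treatment text gives 1 h for every sample while the stated duration, used here, runs to 11 h.

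At each time the 2 dex and 2 EtOH libraries were compared by the robust quasi-likelihood F-test of edgeR 4.0.16 (R 4.3.3), with TMM factors over 24 libraries and filterByExpr over 12 groups (19897 features kept). P-values were adjusted by Benjamini-Hochberg over all features and called at 0.1. CPM are counts scaled by TMM library size (n = 2 per group), and SE is the log2 fold change over the square root of F. Alternatives were DESeq2 1.42.0, its size factors, 2 filters, a threshold of 0.05, a single fit over all libraries, a replicate block, the most counted transcript alone, each library left out and, chosen after seeing the data, a GC trend per library removed. On simulated counts of 19897 features without a GC trend, the 5 h test recovered 87% of 2-fold and 100% of 4-fold changes. Of its 218 calls 14.2% were false, and the test of time in EtOH had 20.7% of 246 calls false. A GC trend, of a size set beforehand and not fitted to these data, was also added to the simulated dex libraries. Left in place, it made 86% of 1379 calls at 5 h false, and once it was removed 12% of 216 were false. The main tests did not remove such a trend. The 37 genes and the 4 further lists were chosen with earlier results of these data known. Every library is printed for genes called in 1 direction at 3 or more times and for SRF, YAP1, CYR61, CTGF, ANKRD1 and ACTB, and each further list but 1, which is not reported on its own here, is represented by the 2 genes per direction with the largest difference among those called at 5 h. Replicates differed by more than sampling noise in every group (chi-square per degree of freedom of 2.21 to 13.9).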

Additional observations from a re-analysis of the deposited data

Results flagged for a closer look

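For 18 of the 36 tested genes the difference between dex and EtOH was itself different between the 6 times, by the treatment by time test over 24 libraries (edgeR quasi-likelihood F-test, adjusted p of at most 0.1), beside 13.9% of all features. The size given is the range of a gene's log2 fold change over the 6 times. It was largest for CALD1 at 2.566, then ANKRD1 at 1.706, AMOTL2 at 1.556, CYR61 at 1.268 and CTGF at 1.246. ACTN1 (0.9278), AXL (0.9739), CNN2 (0.9509), RND3 (0.9146), AMOTL1 (0.9105), TPM2 (0.8781), VCL (0.8699), WWTR1 (0.8193) and THBS1 (0.7425) followed. The smallest ranges that passed were those of ACTG1 at 0.6438, CFL1 at 0.618, ACTB at 0.5888 and ACTN4 at 0.575. AMOTL2, CYR61 and RND3 were called in both directions over the course, as were TAGLN2, ACTN4 and CFL1. With the GC trend of each library removed, an alternative chosen after seeing the data, 15 of the 18 still varied, and ACTG1, ACTN4 and CFL1 did not pass.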

How the results depend on the processing

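Of the 112 calls on the 37 genes, none reversed under any alternative, 74 were kept under every alternative other than leaving out a library and 58 were kept there and without each library in turn. The 58 include CTGF and RHOB at all 6 times, and ANKRD1, THBS1 and CALD1 from 3 to 11 h. DESeq2 kept 84 of the 112, a single fit over all libraries 95, the most counted transcript alone 90 and DESeq2's size factors 107. That last scaling moved the median of all features by at most 0.0354 log2. Counts that moved by over 1.5 times were the genes called at 9 h (22, against 14 with DESeq2), the further genes at 3 h (26, against 17) and the genes that varied with time in EtOH (8, against 3 at a threshold of 0.05, 14 with no filter and 5 with the GC trend removed).

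Leaving out each library in turn gave 3 to 12 of the 37 genes called at 1 h, 11 to 17 at 3 h, 17 to 18 at 5 h, 18 to 33 at 7 h, 10 to 25 at 9 h and 6 to 25 at 11 h. The lowest count at 7 h came without dex replicate 1, at 9 h without dex replicate 1 and at 11 h without EtOH replicate 2. The further genes ranged from 4 to 11, 18 to 24, 21 to 26, 21 to 44, 9 to 40 and 8 to 40 from 1 to 11 h. The genes whose dex difference varied ranged from 13 to 27 and those that varied in EtOH from 0 to 14. At 3 h the calls of ACTG1, TAGLN2 and CFL1 were lost without replicate 1 of either group, at 5 h those of ZYX and FLNA without most libraries, at 7 h those of TAGLN, TPM4, TAGLN2, ACTN4, CFL1 and MYL9 without either dex library, and at 9 h those of TAGLN2, TPM1, ACTN4 and CFL1 without either dex library. At 11 h the sign of TAGLN2, not called, turned with the dex library left out (0.67 without replicate 1, -0.29 without replicate 2).

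Whether the replicate numbers pair the samples is not known. The paper describes a paired EtOH control, but no label says that a number marks a batch or day. Same-numbered deviations from the group means correlated by 0.2, -0.105, 0.0273, 0.000107, 0.131 and -0.00902 from 1 to 11 h, which does not settle it. The main tests took no account of the number. With the number as a replicate block the genes called were 9, 15, 19, 30, 24 and 14 of 36, the further genes 7, 21, 29, 36, 29 and 21 of 85, those whose dex difference varied 19 and those that varied in EtOH 8. With the numbers crossed at 3 h, chosen after seeing the data, 23 and 38 were called. With 2 libraries a group, differences at low counts (MYL9, ACTA2, SRF) were at the limit of what this depth could show.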
